A study of Mus musculus with 4 samples.

Results

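The 10 genes described here form the route from leukaemia inhibitory factor (LIF) to the transcription factor Stat3: the cytokine Lif, the receptor chains Lifr and Il6st, the kinases Jak1 and Jak2, Stat3, the feedback inhibitors Socs2 and Socs3, and the kinase genes Pim1 and Pim3. They were picked by symbol, each matched 1 Ensembl identifier, and they are 10 of the 37224 identifiers measured. RNA-seq compared 2 libraries of Smg6-deficient mouse embryonic stem (ES) cells with 2 libraries of wild-type ES cells, and all 4 are labelled as embryo-derived. Smg6 cuts mRNAs that are targets of nonsense-mediated decay (NMD), and the comparison asks which transcripts differ in level without it. The labels give no strain, clone, allele, passage or culture medium, so they state neither how Smg6 was lost nor whether LIF was supplied. The labels do not say whether the 2 libraries of a genotype came from different cultures, so each p-value measures only how these libraries varied, and that variation may be technical.

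LIF binds its receptor chain Lifr, which pairs with gp130, the product of Il6st and the shared signalling chain of the interleukin-6 family. Receptor-bound Janus kinases phosphorylate the chains and then Stat3, which dimerises and activates genes in the nucleus. Mouse ES cells cultured in serum depend on LIF and Stat3 for self-renewal, and Socs3, induced by Stat3, blocks the receptor and its kinases.

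Stat dimers are known to bind the palindrome TTCNNNGAA, which reads the same on both strands. RefSeq promoters (GRCm38.p6, the assembly that mm10 names; 250 bases before and 50 from the annotated start) were available for 9 of the 10 genes, in 11 entries. The palindrome was found in 1 of them, that of Socs3, against 8.30% of all 32851 RefSeq promoters. The Socs3 promoter (chr11:117969317-117969616, minus strand) is shown whole because Socs3 is the classical Stat3 response gene. The palindrome is in capitals, its first base 154 bases before the RefSeq start at 117969366. The GENCODE M21 span of Socs3 begins further upstream, at 117970047, so the printed promoter lies within that span. Of the 18 genes with a promoter entry in a list of 23 known Stat3 targets, 3 held it, against 9.55% of all 27025 genes with an entry. The windows of these 3 are shown beside that of Socs3 for comparison, and whether the shares differ was not tested. A match is only a description of these letters.
Socs3 promoter: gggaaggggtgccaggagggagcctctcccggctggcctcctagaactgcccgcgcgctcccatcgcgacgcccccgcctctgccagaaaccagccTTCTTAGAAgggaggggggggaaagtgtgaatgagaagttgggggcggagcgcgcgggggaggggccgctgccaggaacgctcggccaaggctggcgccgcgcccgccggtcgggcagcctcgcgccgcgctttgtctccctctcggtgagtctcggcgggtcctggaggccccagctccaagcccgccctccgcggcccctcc
Socs3 window: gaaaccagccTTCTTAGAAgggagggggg
Icam1 window (chr9:21015898-21015906, plus strand): ggcgcgaggtTTCCCGGAAagtggccccg
Irf1 window (chr11:53769924-53769932, plus strand): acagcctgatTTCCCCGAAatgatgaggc
Zfp36 window (chr7:28379237-28379245, minus strand): acagcctgacTTCTGCGAAccgacagtcg

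The deposited gene counts summed to 137937779 to 155391181 in Smg6-deficient libraries and to 130888768 to 137643993 in wild-type libraries. Smg6 itself (chromosome 11, 74925823 to 75164448) had 13366 and 11642 counts in Smg6-deficient libraries, against 13396 and 14071 in wild-type libraries (log2 fold change -0.21, SE 0.0832, edgeR adjusted p = 0.0886). Counts over the whole gene do not reveal missing exons, and the labels are not checked by them. ES cell markers were expressed in every library, with Pou5f1 at 632 and 633 CPM in Smg6-deficient libraries and 936 and 846 CPM in wild-type libraries. Dppa5a, the next most abundant of the 10, had 444.6 and 416.9 CPM in Smg6-deficient libraries, against 990.3 and 905.7 CPM in wild-type libraries. Of the 10 ES cell markers 7 were called lower and 1 higher, against 19.2% and 20.5% of all tested genes. Mitochondrial genes took 1.93% and 2.02% of the counts in Smg6-deficient libraries, against 2.40% and 2.21% in wild-type libraries, and whether this bears on the genes below was not tested.

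Levels below are CPM, the count relative to the TMM-scaled library total, for replicate 1 and then replicate 2 of each group. Fold changes set Smg6-deficient cells over wild type. Each adjusted p is edgeR's, from a quasi-likelihood fit to 20895 genes and adjusted over all of them by the Benjamini-Hochberg method. All 10 genes passed the filter on low counts and were tested. Lifr, Jak2, Stat3 and Socs2 rose, Lif and Il6st fell, and Jak1, Socs3, Pim1 and Pim3 did not pass. The 4 rises compare with 20.5% of all tested genes called higher, the 2 falls with 19.2% called lower, and the 6 calls together with 39.7% called in either direction. With upper-quartile scaling or library size alone the split became 3 higher and 3 lower, because Stat3 was lost and Jak1 gained. The filter of at least 50 counts in 2 libraries gave the same split for the same reason. The gene length correction lost Lifr and Stat3 and gained Jak1. Leaving out Smg6-deficient replicate 1 or 2 gave 3 or 2 genes higher and 1 lower, and leaving out wild-type replicate 1 or 2 gave 5 or 4 higher and 3 or 5 lower. For 9 of the 10 genes the groups were fully apart, against 73.2% of all tested genes. The median log2 fold change was -0.044 over the 10 genes and 0.008 over all genes tested.

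**Figure D1:**
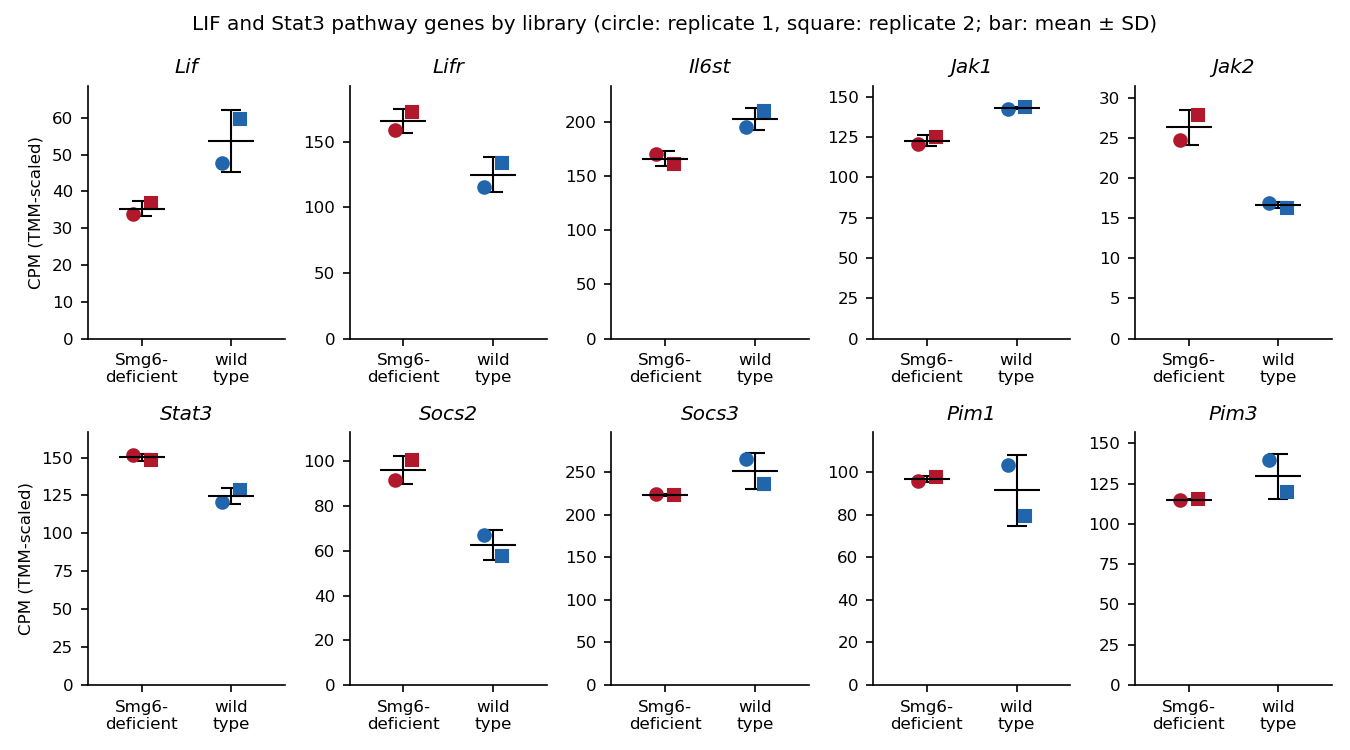
Level of each LIF and Stat3 pathway gene in every library, as TMM-scaled CPM on axes that start at 0, with Smg6-deficient libraries in red and wild-type libraries in blue (circle, replicate 1; square, replicate 2; bar, mean ± SD, n = 2). The groups are apart for every gene except Pim1, whose Smg6-deficient libraries at 96.0 and 97.7 CPM lie between the wild-type libraries at 103.3 and 79.6 CPM.

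The ligand gene Lif (ENSMUSG00000034394; GRCm38 chromosome 11, 4257557 to 4272514, plus strand) had 33.8 and 36.8 CPM in Smg6-deficient libraries, against 47.8 and 59.6 CPM in wild-type libraries. Both Smg6-deficient libraries lay below both wild-type libraries. Lif fell, with a log2 fold change of -0.60 (SE 0.122, edgeR adjusted p = 0.00913), to 0.658 of the wild-type level. The call held under all 17 alternatives, with log2 fold changes from -0.74 to -0.46.

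The receptor chains moved in opposite directions. Lifr (ENSMUSG00000054263; chromosome 15, 7090614 to 7197489, plus strand), the chain that binds LIF, had 159.2 and 172.4 CPM in Smg6-deficient libraries, against 115.5 and 134.2 CPM in wild-type libraries. It rose by a log2 fold change of 0.41 (SE 0.0999, edgeR adjusted p = 0.0181). It did not pass when Smg6-deficient replicate 2 was left out (log2 fold change 0.36). Nor did it pass with a correction for gene length (log2 fold change 0.23, edgeR adjusted p = 0.0592). Lifr did pass when that correction was joined with the replicate block (log2 fold change 0.23, edgeR adjusted p = 0.0334). Il6st (ENSMUSG00000021756; chromosome 13, 112464070 to 112510086, plus strand), which encodes gp130, had 170.6 and 160.9 CPM in Smg6-deficient libraries, against 195.3 and 209.9 CPM in wild-type libraries. It fell, with a log2 fold change of -0.29 (SE 0.0828, edgeR adjusted p = 0.0316). The call was lost under 4 of 17 alternatives. It was lost without Smg6-deficient replicate 1 (log2 fold change -0.32) and without replicate 2 (-0.24). It was also lost with limma on log2(RPKM + 1) (limma adjusted p = 0.0535) and on log2(RPKM + 0.1) (limma adjusted p = 0.0561). With the gene length correction the log2 fold change was -0.47.

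Of the Janus kinases, Jak2 rose and Jak1 was near the threshold. Jak2 (ENSMUSG00000024789; chromosome 19, 29251828 to 29313080, plus strand) had 24.8 and 27.9 CPM in Smg6-deficient libraries, against 16.9 and 16.3 CPM in wild-type libraries. Its log2 fold change of 0.66 (SE 0.102, edgeR adjusted p = 0.00326), a 1.59-fold level, gave the smallest adjusted p of the 10 genes, and the call held under all 17 alternatives. Jak1 (ENSMUSG00000028530; chromosome 4, 101152367 to 101265282, minus strand), the kinase known as the main one for gp130, had 120.4 and 125.1 CPM in Smg6-deficient libraries, against 142.4 and 143.6 CPM in wild-type libraries. The groups were apart, but the log2 fold change of -0.22 (SE 0.0756, edgeR adjusted p = 0.0567) did not pass, and 9 of 17 alternatives called it lower. Among these were the fits without wild-type replicate 1 (edgeR adjusted p = 0.0352) and without wild-type replicate 2 (0.0271), and the gene length correction (log2 fold change -0.34).

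Stat3 (ENSMUSG00000004040; chromosome 11, 100885098 to 100939540, minus strand) had 151.8 and 148.3 CPM in Smg6-deficient libraries, against 120.8 and 128.4 CPM in wild-type libraries. It rose by a log2 fold change of 0.27 (SE 0.0783, edgeR adjusted p = 0.0338), a 1.2-fold level. Of the 6 calls it was the one lost most often, under 9 of 17 alternatives. Stat3 did not pass with Smg6-deficient replicate 1 or replicate 2 left out, though its log2 fold changes there, 0.26 and 0.30, stayed near 0.27. The gene length correction lowered its log2 fold change to 0.11 (edgeR adjusted p = 0.23). The annotated exons of Stat3 share 72 bases with those of Stat5a on the opposite strand, and the kit did not mark strand. Stat3 had 23160 and 20022 counts in Smg6-deficient libraries, against 16911 and 17178 in wild-type libraries. Stat5a had 1194 and 999 counts in Smg6-deficient libraries, against 1356 and 1297 in wild-type libraries.

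Of the 4 feedback and response genes 1 rose, Socs2, and the other 3 did not pass. Socs2 (ENSMUSG00000020027; chromosome 10, 95385362 to 95417180, minus strand), an inhibitor best known for acting on growth hormone signalling, had 91.9 and 100.5 CPM in Smg6-deficient libraries, against 67.3 and 57.8 CPM in wild-type libraries. It rose by a log2 fold change of 0.62 (SE 0.102, edgeR adjusted p = 0.00417), a 1.54-fold level, and the call held under all 17 alternatives. Socs3 (ENSMUSG00000053113; chromosome 11, 117966079 to 117970047, minus strand), the inhibitor that binds gp130 and whose promoter is printed above, had 223.6 and 222.6 CPM in Smg6-deficient libraries, against 265.8 and 236.2 CPM in wild-type libraries. Its log2 fold change of -0.17 (SE 0.0886, edgeR adjusted p = 0.171) did not pass. The fold was 0.889, with an interval of 0.786 to 1.00 at 2 SE either side.

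The Pim genes encode serine/threonine kinases that promote growth and survival. Pim1 (ENSMUSG00000024014; chromosome 17, 29490753 to 29496112, plus strand) had 96.0 and 97.7 CPM in Smg6-deficient libraries, against 103.3 and 79.6 CPM in wild-type libraries. Its log2 fold change was 0.08 (SE 0.127, edgeR adjusted p = 0.635), with a fold of 1.06 and an interval of 0.888 to 1.26. Pim3 (ENSMUSG00000035828; chromosome 15, 88862186 to 88865726, plus strand) had 114.9 and 115.4 CPM in Smg6-deficient libraries, against 139.6 and 119.7 CPM in wild-type libraries. Its log2 fold change of -0.17 (SE 0.0957, edgeR adjusted p = 0.198) did not pass, with a fold of 0.888 and an interval of 0.778 to 1.01. These values depended on which wild-type libraries were used. Without wild-type replicate 2, Socs3 (log2 fold change -0.27, edgeR adjusted p = 0.0115) and Pim3 (-0.30, edgeR adjusted p = 0.00829) passed as lower, and Pim1 turned to -0.11 (edgeR adjusted p = 0.228). Without wild-type replicate 1, Pim1 passed as higher (log2 fold change 0.30, edgeR adjusted p = 0.00954), while Socs3 stood at -0.07 (edgeR adjusted p = 0.43) and Pim3 at -0.04 (edgeR adjusted p = 0.644). Gm26885, annotated on the opposite strand and without a count among the deposited values, shares 488 of the 3362 annotated exon bases of Pim1. Without strand, reads within the shared bases cannot be assigned to 1 of the genes.

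The SD of CPM was larger in Smg6-deficient cells for Jak1 and Jak2 and larger in wild type for the other 8 genes. Between the Smg6-deficient libraries the ratio of replicate 2 over replicate 1 lay between 0.943 for Il6st and 1.13 for Jak2. Socs2, Socs3, Pim1 and Pim3 were all 4 lower in wild-type replicate 2 than in replicate 1, with that ratio at 0.859, 0.889, 0.77 and 0.857, while Lif and Lifr were higher there, at 1.25 and 1.16. Fibroblast and trophectoderm markers had median ratios of 0.721 and 0.717 between the same wild-type libraries, and their part in these differences was not tested.

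**Figure D2:**
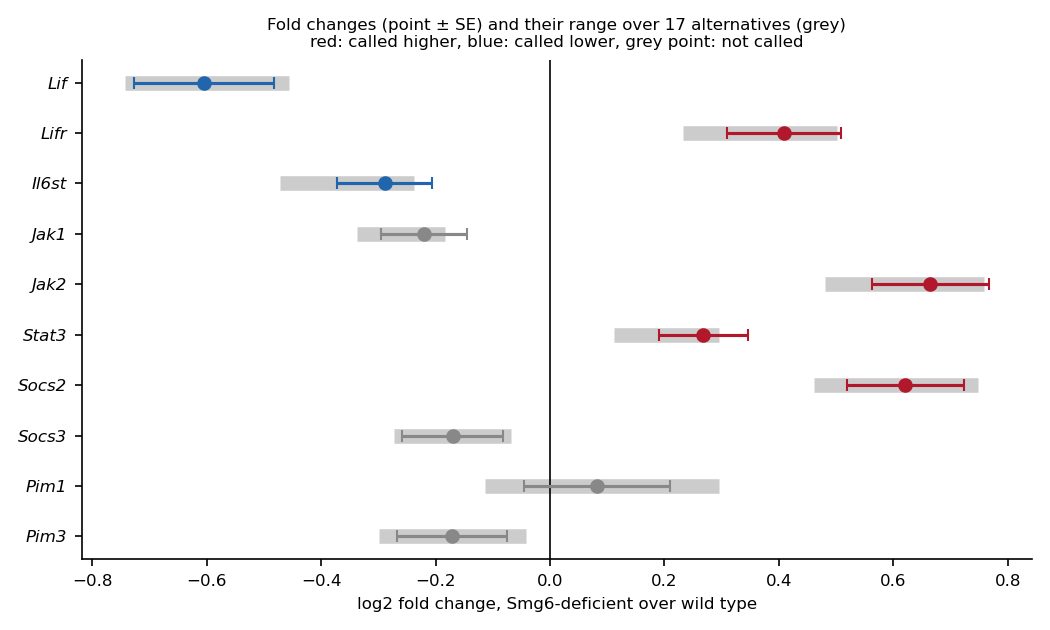
Log2 fold change of Smg6-deficient over wild type for each LIF and Stat3 pathway gene (point ± SE, edgeR, 2 libraries per group; red, called higher; blue, called lower; grey point, not called), with the range over 17 alternative settings as a grey band. The band of Pim1 spans 0, from -0.11 to 0.30, and those of the other 9 genes stay on the side of their point.

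On the per-length scale of the deposited RPKM, Socs3 was the highest of the 10 genes and Jak2 the lowest in both groups. Socs3 averaged 64.4 ± 2.62 RPKM in Smg6-deficient cells and 74.9 ± 9.55 RPKM in wild-type cells (SD, n = 2 each here and below). Jak2 averaged 4.36 ± 0.198 RPKM in Smg6-deficient cells and 2.85 ± 0.191 RPKM in wild-type cells. In Smg6-deficient cells the order from the top was Socs3, Pim1, Pim3, Il6st, Jak1, Lifr, Stat3, Socs2, Lif and Jak2, where Pim3 and Pim1 overlapped, as did Stat3 and Lifr. In wild-type cells it was Socs3, Pim3, Pim1, Il6st, Jak1, Stat3, Lif, Lifr, Socs2 and Jak2, where Pim1 and Pim3 overlapped, and so did each neighbour among Stat3, Lif and Lifr. Lif thus stood below Socs2 in Smg6-deficient cells, at 6.77 ± 0.156 against 8.42 ± 0.219 RPKM, and above it in wild-type cells, at 10.6 ± 1.20 against 5.67 ± 0.856 RPKM. Neither labels nor files give the lengths behind the RPKM. With CPM per kilobase of GENCODE M21 exons, Pim3 exceeded Pim1 in both groups and Il6st moved to rank 7 in Smg6-deficient cells and to rank 5 in wild-type cells, while Socs3 stayed first and Jak2 last.

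Ratios between paired genes within a library do not depend on library scaling. The RPKM ratio of Lifr to Il6st was 0.47 and 0.54 in Smg6-deficient libraries, against 0.298 and 0.322 in wild-type libraries. That of Jak2 to Jak1 was 0.296 and 0.32 in Smg6-deficient libraries, against 0.17 and 0.163 in wild-type libraries. The mean ratio in Smg6-deficient cells was 1.63 times that in wild-type cells for Lifr over Il6st and 1.85 times for Jak2 over Jak1. The ratio of Socs2 to Socs3 was 0.125 and 0.137 in Smg6-deficient libraries, against 0.0768 and 0.0742 in wild-type libraries. For Pim1 over Pim3 it was 1.02 and 1.04 in Smg6-deficient libraries, against 0.908 and 0.816 in wild-type libraries. The ratio of Lifr to Lif, receptor to ligand, was 1.98 and 1.97 in Smg6-deficient libraries, against 1.02 and 0.948 in wild-type libraries. Groups were apart in each of these ratios. Except for Pim1 over Pim3, this followed from the single genes, since the numerator was higher and the denominator lower in both Smg6-deficient libraries. The share of all gene pairs apart in this way was not computed, and the ratios only describe 2 libraries each.

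**Figure D3:**
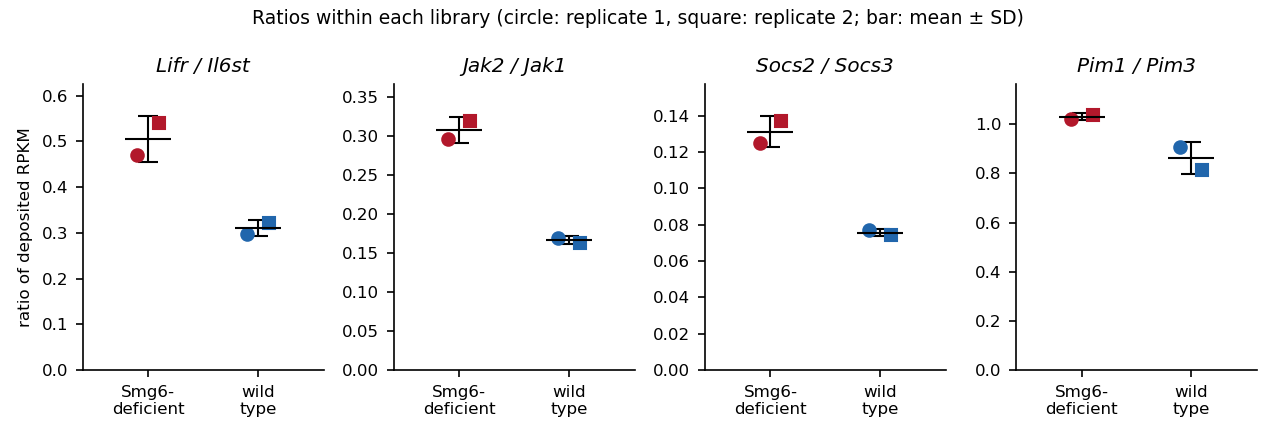
Ratio of the deposited RPKM of paired genes within each library, on axes that start at 0 (red, Smg6-deficient; blue, wild type; circle, replicate 1; square, replicate 2; bar, mean ± SD, n = 2). Lifr over Il6st averaged 0.505 in Smg6-deficient and 0.31 in wild-type cells, and Jak2 over Jak1 averaged 0.308 in Smg6-deficient and 0.167 in wild-type cells.

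The wider pathway was read from 6 further lists, all of whose genes were tested. The counts of calls in each list stand beside 20.5% of all tested genes called higher and 19.2% called lower. In either direction 39.7% of all tested genes were called, so a call in a list is not by itself a trait of the pathway. Of 11 other ligands and partners of the interleukin-6 family, 3 were called higher and 2 lower (median log2 fold change 0.11). Osm, the cytokine gene that ends 16530 bases before Lif on the same strand of chromosome 11, had 0.302 and 0.348 CPM in Smg6-deficient libraries, against 1.89 and 1.99 CPM in wild-type libraries (log2 fold change -2.58, SE 0.22, edgeR adjusted p = 0.000446). The neighbours Osm and Lif were thus both lower, Osm from a low level. Ctf2, a cardiotrophin gene, had 0.380 and 0.341 CPM in Smg6-deficient libraries, against 1.18 and 0.725 CPM in wild-type libraries, and fell by 1.40 on the log2 scale (edgeR adjusted p = 0.0127). The count of 3 higher was 1 without either Smg6-deficient library and 5 without wild-type replicate 1.

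Of 6 other receptor chains of the family, 2 were called higher and 1 lower (median 0.15). Cntfr, the chain that binds ciliary neurotrophic factor and then recruits Lifr and gp130, had 16.1 and 14.5 CPM in Smg6-deficient libraries, against 4.43 and 4.32 CPM in wild-type libraries (log2 fold change 1.81, SE 0.12, edgeR adjusted p = 0.000246). Osmr, the oncostatin M chain, had 15.5 and 14.4 CPM in Smg6-deficient libraries, against 11.1 and 6.33 CPM in wild-type libraries (log2 fold change 0.78, SE 0.244, edgeR adjusted p = 0.043). It was not called under 6 of 17 alternatives, and its log2 fold change was 1.25 without wild-type replicate 1 and 0.41 without wild-type replicate 2. Il31ra had 7 and 4 counts in Smg6-deficient libraries, against 31 and 22 counts in wild-type libraries (log2 fold change -2.31, SE 0.455, edgeR adjusted p = 0.0082). It was not called without Smg6-deficient replicate 2 (edgeR adjusted p = 0.0723). With library size alone the split of this list was 1 higher and 1 lower.

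Of 8 other Jak and Stat genes, 3 were called higher and 2 lower (median 0.16). Stat2, a mediator of interferon signalling, had 31.0 CPM in both Smg6-deficient libraries, against 16.3 and 18.7 CPM in wild-type libraries (log2 fold change 0.82, SE 0.104, edgeR adjusted p = 0.0016). Tyk2, a Janus kinase that can also act on gp130 and the highest of this list, had 55.0 and 56.3 CPM in Smg6-deficient libraries, against 37.6 and 43.0 CPM in wild-type libraries (log2 fold change 0.47, SE 0.0942, edgeR adjusted p = 0.00911). Stat4 (log2 fold change -0.40, edgeR adjusted p = 0.0444) and Stat5a (-0.35, edgeR adjusted p = 0.0483), named after its values were seen, were the 2 that fell. Neither was called when Smg6-deficient replicate 1 was left out (edgeR adjusted p = 0.16 and 0.221) or replicate 2 (0.276 and 0.349), nor was Stat4 without wild-type replicate 2 (0.0687).

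Among 16 other inhibitors and modulators (Socs, Pias and phosphatase genes, Sh2b3 and Pim2), 2 were called higher and 4 lower (median -0.13). Sh2b3, an adaptor that restrains Jak2, had 50.9 and 52.4 CPM in Smg6-deficient libraries, against 22.4 and 23.7 CPM in wild-type libraries (log2 fold change 1.17, SE 0.0852, edgeR adjusted p = 0.000291). Ptpn11, the phosphatase Shp2 that docks on gp130 and passes the signal to the Ras pathway, had 221.5 and 216.7 CPM in Smg6-deficient libraries, against 144.8 and 147.8 CPM in wild-type libraries (log2 fold change 0.58, SE 0.0753, edgeR adjusted p = 0.00176). Socs6 fell by 0.51 on the log2 scale (edgeR adjusted p = 0.00457). Pias2, the highest of the list, fell by 0.34 (edgeR adjusted p = 0.0135) and was not called without Smg6-deficient replicate 1 (0.151) or replicate 2 (0.152). The count of 4 lower was 2 without either Smg6-deficient library, and 7 with the gene length correction.

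The Ras-MAPK and PI3K arms that also start at gp130 had 9 of 23 genes called higher and 5 lower (median 0.08). With DESeq2 size factors the split was 7 and 6, with upper-quartile factors 7 and 7, and with library size alone 6 and 7. Tbx3, a transcription factor of the naive state placed downstream of PI3K, had 84.3 and 109.0 CPM in Smg6-deficient libraries, against 260.2 and 220.2 CPM in wild-type libraries (log2 fold change -1.31, SE 0.144, edgeR adjusted p = 0.000974). Shc1, an adaptor gene, had 131.8 and 136.0 CPM in Smg6-deficient libraries, against 87.4 and 82.5 CPM in wild-type libraries (log2 fold change 0.66, edgeR adjusted p = 0.00137). Gab1, the adaptor for Shp2 and named after its values were seen, had 481.9 and 471.1 CPM in Smg6-deficient libraries, against 310.3 and 311.2 CPM in wild-type libraries (log2 fold change 0.62, edgeR adjusted p = 0.00167). Grb2, an adaptor that links receptors to Ras and also named after its values were seen, fell by 0.41 on the log2 scale (edgeR adjusted p = 0.00772). Pik3r2, a regulatory subunit of PI3K, rose by a log2 fold change of 0.86 (edgeR adjusted p = 0.00101). Without Smg6-deficient replicate 2 only 4 genes of these arms were called higher, and without either Smg6-deficient library 2 were called lower.

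Of 23 genes known as Stat3 targets, 6 were called higher and 8 lower, against 20.5% and 19.2% of all tested genes. Their median log2 fold change was -0.17, against 0.008 over all genes tested. Tfcp2l1, the transcription factor through which Stat3 supports ES cell self-renewal, had 208.8 and 241.7 CPM in Smg6-deficient libraries, against 457.2 and 525.0 CPM in wild-type libraries (log2 fold change -1.12, SE 0.112, edgeR adjusted p = 0.000728). Gbx2, a homeobox gene also activated by LIF and Stat3 in ES cells, went the other way, with 72.6 and 87.4 CPM in Smg6-deficient libraries, against 12.6 and 7.77 CPM in wild-type libraries (log2 fold change 2.97, SE 0.23, edgeR adjusted p = 0.000336). Cebpd, a factor of the acute-phase response, had 12.1 and 10.7 CPM in Smg6-deficient libraries, against 3.73 and 3.98 CPM in wild-type libraries (log2 fold change 1.57, SE 0.13, edgeR adjusted p = 0.000408). The Krüppel-like factor genes, named after their values were seen, were divided: Klf4 had 99.9 and 114.3 CPM in Smg6-deficient libraries, against 203.6 and 166.6 CPM in wild-type libraries (log2 fold change -0.79, edgeR adjusted p = 0.00326). Klf5 had 130.3 and 162.2 CPM in Smg6-deficient libraries, against 98.8 and 97.3 CPM in wild-type libraries (log2 fold change 0.58, edgeR adjusted p = 0.00834), and did not pass without Smg6-deficient replicate 2 (0.0515). The highest of the list, the survival gene Mcl1, had a log2 fold change of -0.02 (edgeR adjusted p = 0.851) that turned positive without Smg6-deficient replicate 1. Without either Smg6-deficient library 5 of the 23 targets were called lower, against 8 with all libraries.

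Of the 3 target genes whose promoter windows are printed above, named after their values were seen, 1 rose, 1 fell and 1 did not pass. Zfp36, an mRNA-destabilising protein gene, rose by a log2 fold change of 0.74 (edgeR adjusted p = 0.00227). Icam1, an adhesion molecule gene, fell by 0.31 (edgeR adjusted p = 0.0437) and was not called without Smg6-deficient replicate 1 (0.209) or replicate 2 (0.215). Irf1, an interferon-response factor gene, had 35.1 and 20.8 CPM in Smg6-deficient libraries, against 35.9 and 27.2 CPM in wild-type libraries (log2 fold change -0.17, edgeR adjusted p = 0.605), and without Smg6-deficient replicate 1 it was called lower (log2 fold change -0.59, edgeR adjusted p = 0.0276).

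**Figure D4:**
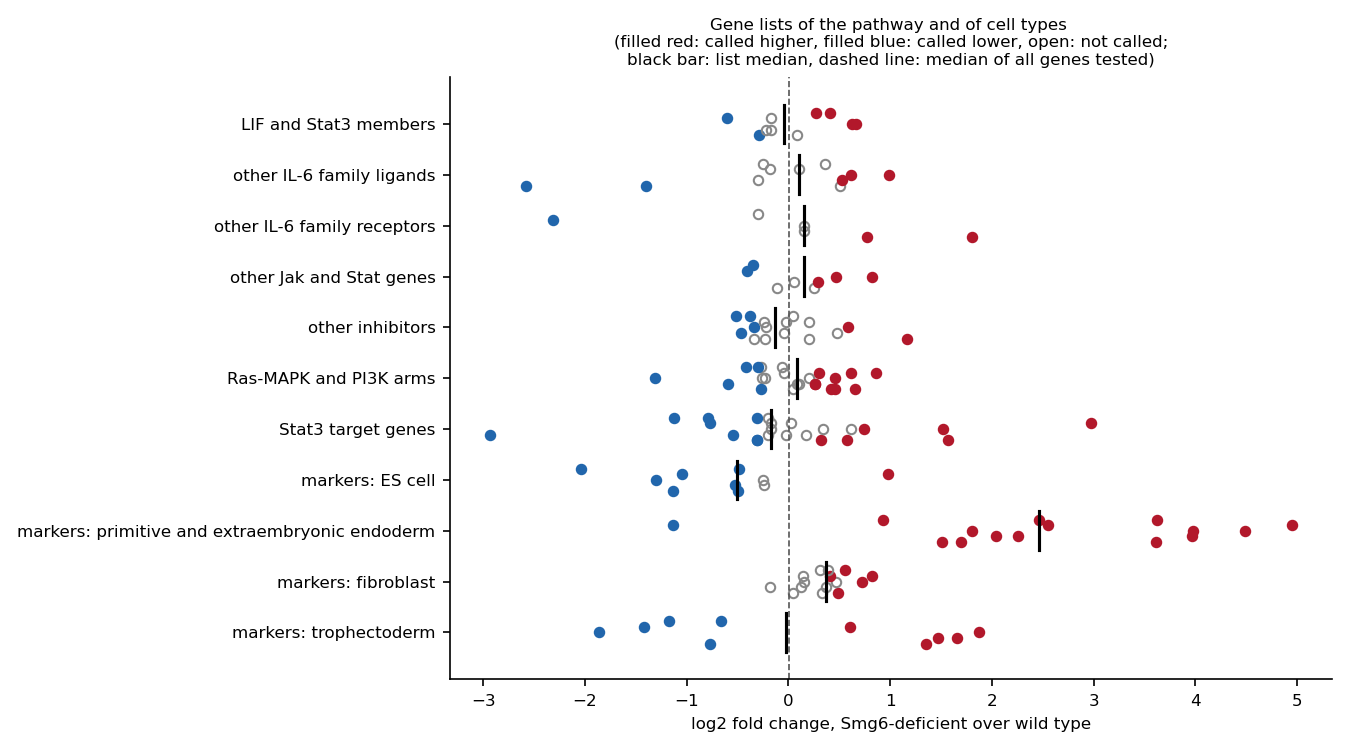
Log2 fold change of Smg6-deficient over wild type for every gene of the pathway lists and of the cell type marker lists (edgeR; filled red, called higher; filled blue, called lower; open, not called), with the list median as a black bar and the median of all genes tested as a dashed line. Endoderm markers lie farthest to the right, with a median of 2.46, and the 10 LIF and Stat3 genes lie between -0.60 for Lif and 0.66 for Jak2.

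Markers of other cell types stand beside these results. Their median log2 fold change was 2.46 for endoderm, 0.365 for fibroblast and -0.028 for trophectoderm markers. Their counts of calls compare with 20.5% of all tested genes called higher and 19.2% called lower. Of 15 primitive and extraembryonic endoderm markers, 14 were called higher and 1 lower, and their summed level was 3291 and 4777 CPM in Smg6-deficient libraries, against 1180 and 1034 CPM in wild-type libraries. The 2 with the highest mean log2 CPM over the 4 libraries, Sparc and Lamb1, averaged 793.9 ± 152.4 and 697.9 ± 142.7 CPM in Smg6-deficient cells, against 416.0 ± 41.2 and 244.5 ± 7.94 CPM in wild-type cells. Between the Smg6-deficient libraries the median ratio of replicate 2 over replicate 1 was 1.64 for these markers. For the 10 LIF and Stat3 genes it was 1.03, a median over single ratios that ran from 0.943 for Il6st to 1.13 for Jak2. Fibroblast markers summed to 1736 and 1597 CPM in Smg6-deficient libraries, against 1387 and 1010 CPM in wild-type libraries. Of the 15, 5 were called higher and 10 were not called. With library size alone 2 of the 15 were called higher, as when Smg6-deficient replicate 1 was left out, and 12 were when wild-type replicate 1 was left out. The highest of them, Col1a1, had 576.2 and 511.3 CPM in Smg6-deficient libraries, against 451.6 and 325.2 CPM in wild-type libraries (log2 fold change 0.48, edgeR adjusted p = 0.0489), and 10 of 17 alternatives did not call it. Its log2 fold change was 0.76 without wild-type replicate 1 and 0.25 without wild-type replicate 2. Trophectoderm markers summed to 332 and 321 CPM in Smg6-deficient libraries, against 258 and 183 CPM in wild-type libraries, with 5 of 10 higher and 5 lower. ES cell markers summed to 3276 and 3236 CPM in Smg6-deficient libraries, against 5507 and 4640 CPM in wild-type libraries, with 1 of 10 higher and 7 lower. No marker was at 0 in every library. In such bulk samples fewer cells of a type and less RNA per cell cannot be told apart, and the part of these cell types in the values of the LIF and Stat3 genes was not tested.

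NMD features were read from GENCODE M21, since NMD acts on transcripts with an exon junction well after the stop codon. A transcript whose last junction lies over 50 nt past the stop codon was annotated for 3 of the 10 genes, Lifr, Il6st and Socs2, against 25.9% of 16455 tested coding genes. Of these 3, Lifr and Socs2 rose and Il6st fell. The stretch after the stop codon of the transcript with the longest coding sequence had a median of 1419 nt over the 10 genes and 870 nt over all coding genes, and was longest in Lifr (6320 nt), Il6st (5641 nt) and Lif (3180 nt). None of the 10 genes lay on chromosome X, and 3 lay on chromosome 11.

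The genes whose profile over the 4 libraries was most like that of Jak2 were Cnpy1, Plcd3 and Ltbr, at Euclidean distances of 0.0234, 0.039 and 0.0414 in centred log2 CPM among the 12344 genes that averaged 2 or more on the log2 CPM scale. Cnpy1 had 85.8 and 94.5 CPM in Smg6-deficient libraries, against 57.9 and 56.3 CPM in wild-type libraries. With 4 libraries such likeness only describes these profiles.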

How the data were processed

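RNA was extracted with TRIzol, libraries were made with the unstranded TruSeq RNA v2 kit, and sequencing on a HiSeq2000 gave single-end 50 nt reads, per the labels' protocols. TopHat2 2.0.9 and mm10 are named in the submitters' processing notes. No source used here names the counter or the annotation. Each deposited table holds whole-number counts per Ensembl gene, not normalized, and RPKM values that the authors computed with gene lengths and read totals not given here: the counts sum to 81.6% to 87.4% of the read total the RPKM imply. The counts per library lay between 130888768 and 155391181.

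From the deposited counts, genes passing filterByExpr (minimum 10 counts; 20895 genes) were given TMM factors, and the quasi-likelihood F test of edgeR 4.0.16 was run in R 4.3.3 with Benjamini-Hochberg adjustment at 0.05, over all 4 libraries and without a replicate term. The step was tested on simulated data. The 17 alternatives used other scalings, filters and tests (DESeq2 1.42.0; limma 3.58.1, including log2(RPKM + 1) and log2(RPKM + 0.1)), a replicate block, a gene length correction, autosomal genes alone, and each library left out in turn. Where a library was left out, its group's lone library was taken to vary like the other group. The deposited RPKM were used for levels per length and ratios within a library.

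Symbols and coordinates came from GENCODE M21 (GRCm38) by Ensembl identifier, matching 35449 of 37224 identifiers. The 10 genes and the lists were chosen with earlier results of these data known, so no value here is independent evidence for them. Of each further pathway list the 3 genes with the smallest adjusted p were named, and of the receptor, Jak and Stat, inhibitor and target lists also the most abundant gene; 1 gene that this rule names is not reported here. Icam1, Irf1 and Zfp36 were named for their promoter match, but after their values were seen. Other genes were named after their values were seen where this is said. The 4 libraries leave 2 residual degrees of freedom (common biological coefficient of variation 0.118). The replicates differed by far more than sampling noise (chi-square per degree of freedom 42.2 in Smg6-deficient and 74.6 in wild-type pairs), so no pair was one library deposited again.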

Additional observations from a re-analysis of the deposited data

How the results depend on the processing

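All 10 LIF and Stat3 genes kept their direction under the 17 alternatives, except Pim1, which ran from -0.114 without wild-type replicate 2 to 0.296 without wild-type replicate 1. Lif, Jak2 and Socs2 kept their calls under all 17. With a library left out, Mcl1 ran from -0.045 to 0.021, reversed without Smg6-deficient replicate 1, and Irf1 ran from -0.589 to 0.164, reversed without Smg6-deficient replicate 2 and without wild-type replicate 1 (0.052). Limma on log2(RPKM + 1) and on log2(RPKM + 0.1) called 2700 and 2643 genes higher, against 4285, and 1 of the 10 LIF and Stat3 genes lower under each. It called 1 ligand lower (RPKM + 1), 1 receptor higher, 4 Ras-MAPK and PI3K genes higher and 0 Jak and Stat genes lower under both, and 0 receptors lower (RPKM + 1). The gene length correction gave 2 LIF and Stat3 genes higher, 1 receptor higher, 7 inhibitors lower and 8 Ras-MAPK and PI3K genes lower; with the replicate block it gave 8 inhibitors lower, and 5 Ras-MAPK and PI3K genes higher and 8 lower. With library size alone 1 receptor was called higher. With no filter the counts were 1 receptor higher, 0 Jak and Stat genes lower and 5 targets lower, and with the filter of 50 counts 1 receptor higher and 0 lower. Leaving out 1 library at a time gave 2805 to 5578 genes higher and 2300 to 4899 lower (lowest without a Smg6-deficient library, highest without wild-type replicate 1), LIF and Stat3 genes 2 to 5 higher and 1 to 5 lower, ligands 1 to 5 higher and 2 to 3 lower, and receptors 2 higher and 0 to 1 lower. It also gave Jak and Stat genes 2 to 3 higher and 0 to 2 lower, inhibitors 2 to 3 higher and 2 to 6 lower, Ras-MAPK and PI3K genes 4 to 10 higher and 2 to 7 lower, and targets 5 to 9 higher and 5 to 9 lower. The cause of these shifts was not tested. Smg6, not called in the main fit, was called lower with library size alone (-0.27, edgeR adjusted p = 0.044). It was also called lower with the gene length correction (-0.35, edgeR adjusted p = 0.0105), also joined with the replicate block (-0.345, edgeR adjusted p = 0.00675). The same call was made without wild-type replicate 1 (-0.26).

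Deviations of same-numbered libraries correlated at 0.155 over 20895 genes, and with 2 pairs the numbers were not taken to pair the libraries. The replicate block gave 5074 genes higher and 4613 lower, and 4 LIF and Stat3 genes higher and 2 lower. Of the values by setting for single genes and counts of called markers, 881 kept their direction and side of the threshold or, for counts, stayed within 1.5 times, 61 lost and 20 gained a call, 4 reversed and 19 counts of called markers moved further. Depth limits most the genes with few counts, such as Il31ra with 4 to 31 counts per library. No sample could be compared with its group's spread, since groups of 2 allow no outlier test.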
